A study of Mus musculus with 56 samples.

Results

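The 10 genes described here, Adipoq, Lep, Retn, Cfd, Plin1, Cidec, Lipe, Fabp4, Scd1 and Pparg, are genes that fat cells express strongly, read in bulk RNA of mouse gastrocnemius, the large calf muscle. They were chosen by name as fat cell genes, with earlier results of these data known. All 10 are among the 15539 genes of the count table and among the 14321 genes that had enough counts to be tested. The question was how a running wheel and the loss of HuR changed this fat cell signal in males and in females. HuR, encoded by Elavl1, is an RNA-binding protein that acts on the stability and use of many messenger RNAs.

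The mice were C57Bl/6 and fell into 8 groups of 7, 56 in all. Both sexes were studied as HuRm-/- mice, which carried floxed Elavl1 and a Cre recombinase driven by the Mlc1f promoter of skeletal muscle fibres, and as controls, which were HuR fl/fl littermates. Each of these 4 lines was kept with either a locked wheel or a wheel that turned freely, from 10 to 20 weeks of age, on chow 5015. The labels also give the age as 5 months. Cre driven this way deletes in muscle fibres, so that fat cells, vessels and other cells of the same muscle keep HuR. The labels do not say whether littermates were spread over the groups.

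Fat cells lie between the fibres and fascicles of a muscle, and strands of fat surround the muscle from which it is dissected, so RNA of a whole gastrocnemius holds a small part that comes from fat. The mature white fat cell keeps its triglyceride in 1 large droplet coated by perilipin, releases fatty acids through lipases, and secretes hormones such as adiponectin and leptin. Pparg, a nuclear receptor, drives the formation of these cells and switches on many of the other genes. Fabp4 is also made by capillary endothelium and macrophages, Scd1 by liver and other lipogenic tissues, and Lipe by muscle fibres, so none of these is specific to fat cells.

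The promoters of 4 members are shown because these genes differed with the wheel in female controls and have a single transcription start in RefSeq. Pparg differed too, but RefSeq gives it 3 starts, and the counts do not tell which one is used. The sequences are the RefSeq bases just upstream of the start on GRCm38.p6, written 5′ to 3′ on the strand of the gene. They are chr16:23146286-23146535 (+) for Adipoq, chr8:3655520-3655769 (+) for Retn, chr10:79890603-79890852 (+) for Cfd and chr7:79732904-79733026 (-) for Plin1. The Plin1 stretch is 123 bases long and stops short of the start, because the nearest 127 bases are annotated as exon. Capitals mark matches to CCAAT in Adipoq and to the C/EBP core TTGCNNAA in Plin1, both searched on either strand together with the nuclear receptor half-site AGGTCA and the TATA box TATAAA.
Adipoq: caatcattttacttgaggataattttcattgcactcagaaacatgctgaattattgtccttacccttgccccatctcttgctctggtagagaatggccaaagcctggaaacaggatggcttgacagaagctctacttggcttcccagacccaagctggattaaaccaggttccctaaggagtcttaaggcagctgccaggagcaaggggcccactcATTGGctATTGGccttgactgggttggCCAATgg
Retn: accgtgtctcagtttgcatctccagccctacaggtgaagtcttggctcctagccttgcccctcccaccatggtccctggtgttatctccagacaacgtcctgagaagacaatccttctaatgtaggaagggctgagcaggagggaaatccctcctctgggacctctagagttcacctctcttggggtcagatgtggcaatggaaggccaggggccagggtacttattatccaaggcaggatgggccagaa
Cfd: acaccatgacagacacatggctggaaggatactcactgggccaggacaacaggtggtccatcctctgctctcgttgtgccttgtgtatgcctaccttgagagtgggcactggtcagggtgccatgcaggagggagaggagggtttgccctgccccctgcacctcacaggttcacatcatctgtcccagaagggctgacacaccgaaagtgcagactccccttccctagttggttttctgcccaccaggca
Plin1: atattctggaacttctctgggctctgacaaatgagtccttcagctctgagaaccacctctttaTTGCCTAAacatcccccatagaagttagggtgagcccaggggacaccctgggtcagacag
The 250 bases before the Adipoq start held 3 matches to CCAAT, at bases 34 to 30, 27 to 23 and 7 to 3 before the start. The Plin1 match shown lies at bases 187 to 180, and a second C/EBP core lies at bases 58 to 51, within the annotated exon. Neither the Retn nor the Cfd stretch held any of the 4 motifs. Over 32817 RefSeq promoters of the same length, 33.8% held CCAAT, 9.57% the C/EBP core, 14.0% the half-site and 12.4% the TATA box. In all, 8 of the 10 members matched the promoter table, with 12 starts. Fabp4 and Scd1 had no entry.

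Total counts ran from 6639782 to 21633091 per mouse with a median of 12380363, and levels are given below as CPM, counts relative to the library's total, after TMM scaling. Elavl1 (chr8:4285382-4325413, minus strand), the targeted gene, had a median of 54.0 CPM in locked male controls against 50.5 CPM in locked HuRm-/- males, and of 44.5 CPM in locked female controls against 47.9 CPM in locked HuRm-/- females. With a running wheel the medians were 54.4 CPM against 61.3 CPM in males and 51.5 CPM against 52.8 CPM in females. It was not called lower in any group labelled HuRm-/-, with adjusted p of 0.714 to 0.978 in the other 3 comparisons, and in running males it was higher than in controls by 0.44 on the log2 scale (adjusted p = 0.0242). The counts are per gene and do not show which exons the reads came from, so they check neither the deletion nor the label, and the genotype stands here as labelled. The study itself reported lower Elavl1 mRNA by qPCR in gastrocnemius of HuRm-/- mice than of controls, a fall that these counts do not show. The tissue label held, since 10 skeletal muscle genes together took between 91948 and 133874 CPM per mouse. The summed level of 15 liver genes ran from 7.20 to 3686 CPM and exceeded 1000 CPM in 2 mice, the locked female control mouse 15 and the locked HuRm-/- female mouse 19. Replicates differed by more than counting noise in every group.

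The summed level of the 10 members had a median of 884 CPM in locked female controls (range 568 to 995) and of 521 CPM in running ones (473 to 713). In HuRm-/- females it was 898 CPM with a locked wheel (520 to 1061) and 699 CPM with a running one (506 to 980). Locked male controls had 420 CPM (319 to 670) and running ones 431 CPM (344 to 613). HuRm-/- males had 381 CPM locked (317 to 686) and 544 CPM running (356 to 681). The running female controls thus lay nearer to the male groups than to the locked females of either genotype. Fabp4 and Scd1, which other cells also express, made up most of these sums. Together they had a median of 548 CPM in locked and 361 CPM in running female controls. The 4 genes of secreted products together had medians of 227 and 92.7 CPM in the same groups. In bulk RNA, fewer fat cells and less of these RNAs per fat cell cannot be told apart.

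**Figure D1:**
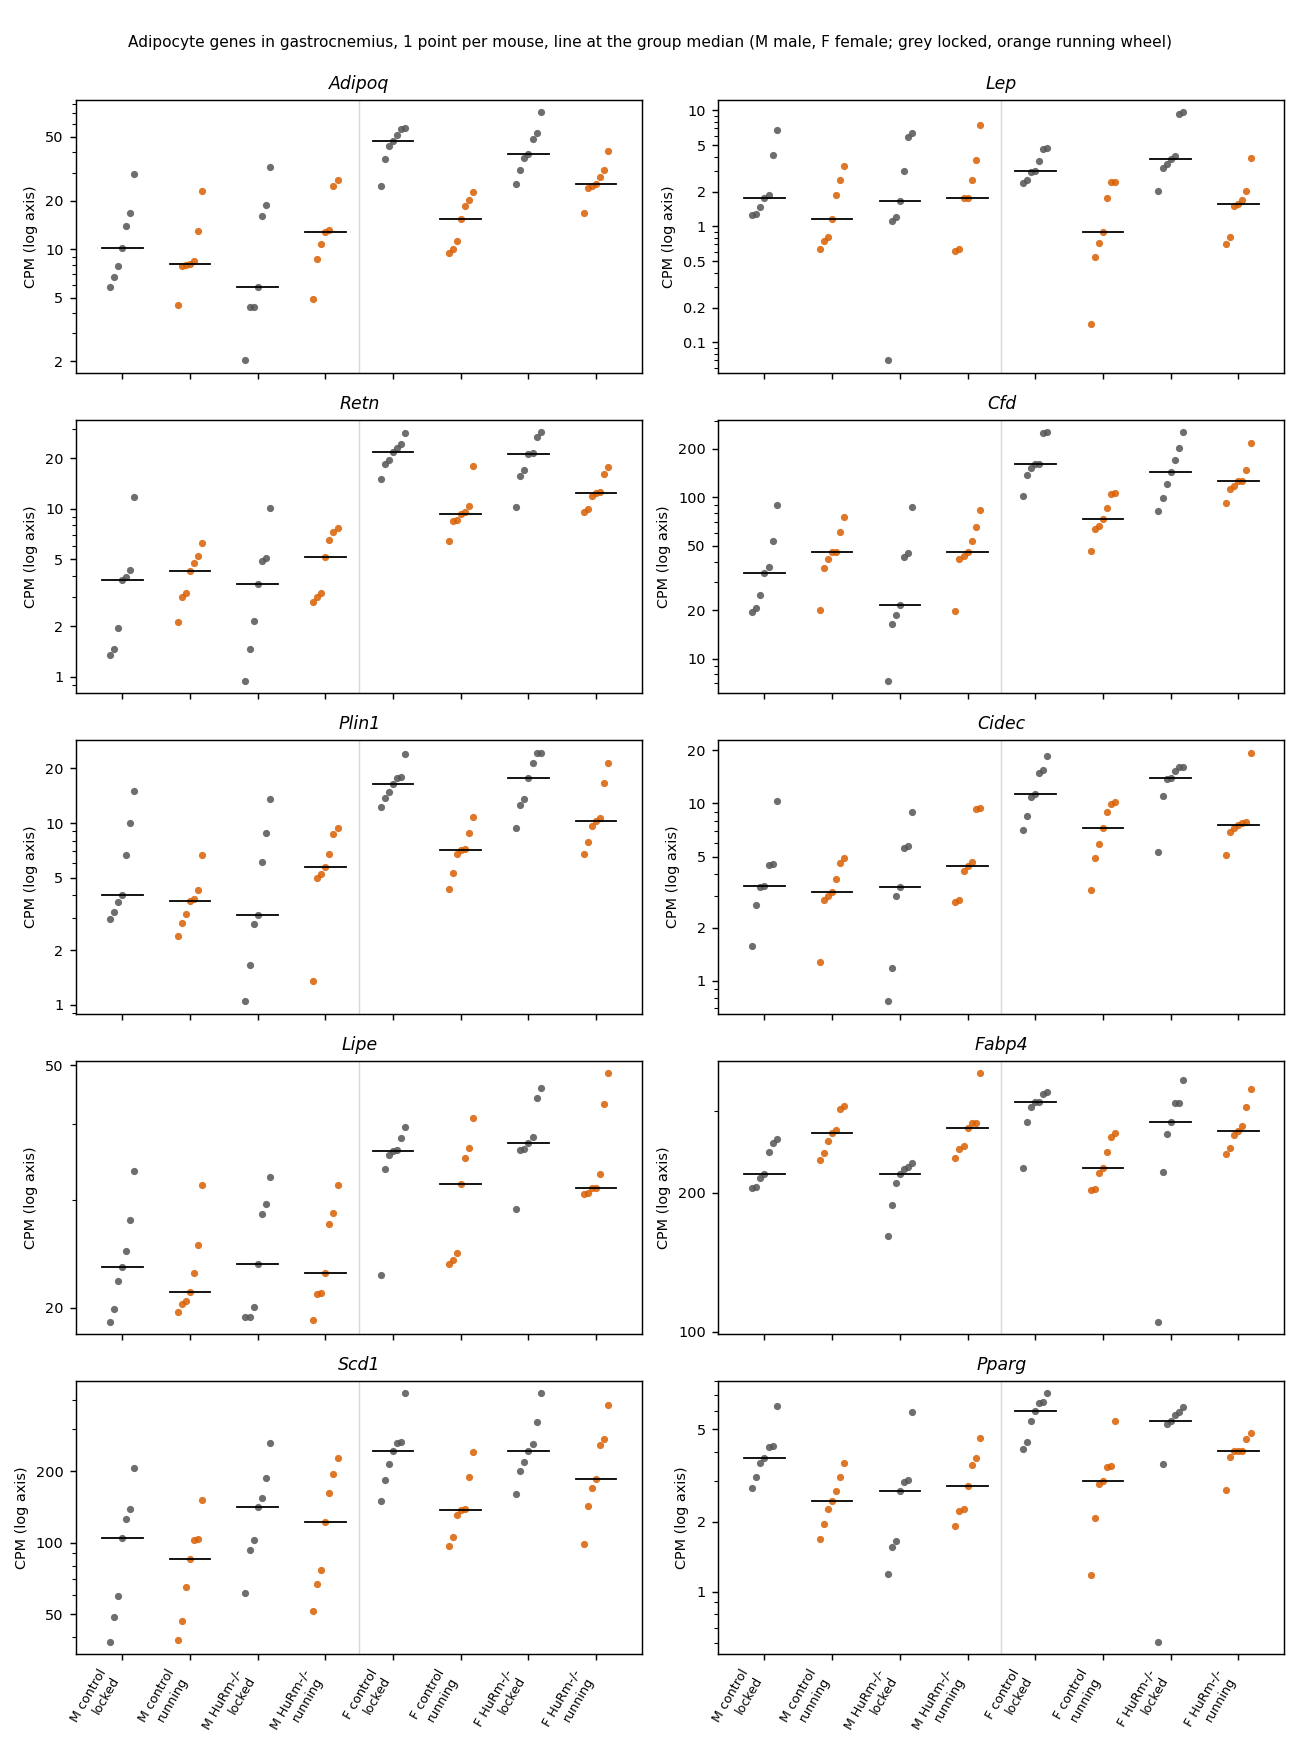
Level of each of the 10 members in every mouse, in CPM on a log axis, with 1 point per mouse, 7 per group, and a line at the group median (grey locked wheel, orange running wheel). For Adipoq the 7 running female controls, at 9.40 to 22.5 CPM, lie below all 7 locked ones, at 24.8 to 57.0 CPM.

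In female controls the running wheel went with lower levels of the fat cell genes. All 10 members had a lower fitted level in running than in locked mice, 5 of them past the threshold (an adjusted p of 0.05 or less in limma), where 8.74% of all genes tested passed in either direction. The median difference of the 10 was -1.08 on the log2 scale, beside 0.01 over all genes tested. For 9 of the 10, all 7 running mice lay below the median of the locked mice, a count that was not made over all genes. The members followed one another from mouse to mouse within groups, as given below, so they are not separate observations.

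Among the secreted products, Adipoq (chr16:23146536-23158028), which encodes adiponectin, ran from 24.8 to 57.0 CPM with a median of 46.9 in locked female controls and from 9.40 to 22.5 with a median of 15.4 in running ones. The 2 groups did not overlap. It fell by 1.58 on the log2 scale (SE 0.34, adjusted p = 0.00171), a 3.0-fold lower level with a 95% interval of 1.88 to 4.79. Retn (chr8:3655770-3660110), the gene of the hormone resistin, ran from 15.1 to 28.1 CPM (median 21.8) locked and from 6.41 to 18.1 CPM (9.26) running. A single running mouse, number 25, reached into the locked range, with 18.1 CPM. Retn fell by 1.16 (SE 0.25, adjusted p = 0.00182), or 2.24-fold. Cfd (chr10:79890853-79892655) encodes adipsin, the complement factor D that fat cells secrete. It ran from 102 to 253 CPM (median 161) locked and from 46.6 to 107 CPM (73.9) running, so that the groups touched only at their edges. Cfd fell by 1.15 (SE 0.31, adjusted p = 0.0127), or 2.22-fold.

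Lep (chr6:29060220-29073877), the leptin gene, had few reads, with 1 to 115 counts per mouse over all 56 mice. It ran from 2.39 to 4.78 CPM (median 2.99) in locked female controls and from 0.145 to 2.41 CPM (0.887) in running ones. Its difference of -1.50 was of the size of that of Adipoq, but its SE was 0.68 and it did not pass the threshold (adjusted p = 0.159).

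Of the genes of the lipid droplet, Plin1 (chr7:79720218-79732903, minus strand), which encodes the perilipin that coats it and guards it from lipases, ran from 12.2 to 23.9 CPM (median 16.4) locked and from 4.34 to 10.8 CPM (7.12) running. These groups did not overlap either. Plin1 fell by 1.23 (SE 0.33, adjusted p = 0.0132), or 2.34-fold. Cidec (chr6:113424634-113435760, minus strand), whose product fuses small droplets into a large one, had 7.10 to 18.5 CPM (median 11.3) locked and 3.25 to 10.2 CPM (7.24) running. The ranges overlapped, and the difference of -0.83 did not pass (adjusted p = 0.0941). Lipe (chr7:25379527-25398710, minus strand) encodes hormone-sensitive lipase, which muscle fibres also make, and it had 22.7 to 39.5 CPM (median 36.1) locked and 23.6 to 40.9 CPM (31.96) running. The groups lay over each other (difference -0.19, 95% interval -0.48 to 0.09, adjusted p = 0.443).

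Pparg (chr6:115360951-115490399), the receptor that drives fat cell formation, ran from 4.11 to 7.11 CPM (median 5.98) locked and from 1.18 to 5.40 CPM (2.98) running. It fell by 1.02 (SE 0.33, adjusted p = 0.0447), or 2.02-fold, close to the threshold, and it lost the call in 10 of 14 fits that left out 1 mouse, with adjusted p of up to 0.113. Neither gene of lipid handling passed. Fabp4 (chr3:10204088-10208576, minus strand), a fatty acid carrier, had 227 to 330 CPM (median 314) locked and 203 to 269 CPM (226) running, a difference of -0.37 (adjusted p = 0.0749). Scd1 (chr19:44394455-44407879, minus strand), which makes monounsaturated fatty acids, had 150 to 424 CPM (median 242) locked and 96.7 to 241 CPM (137) running, a difference of -0.73 (adjusted p = 0.148). All 7 running mice lay below the locked median for both, while the ranges overlapped.

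**Figure D2:**
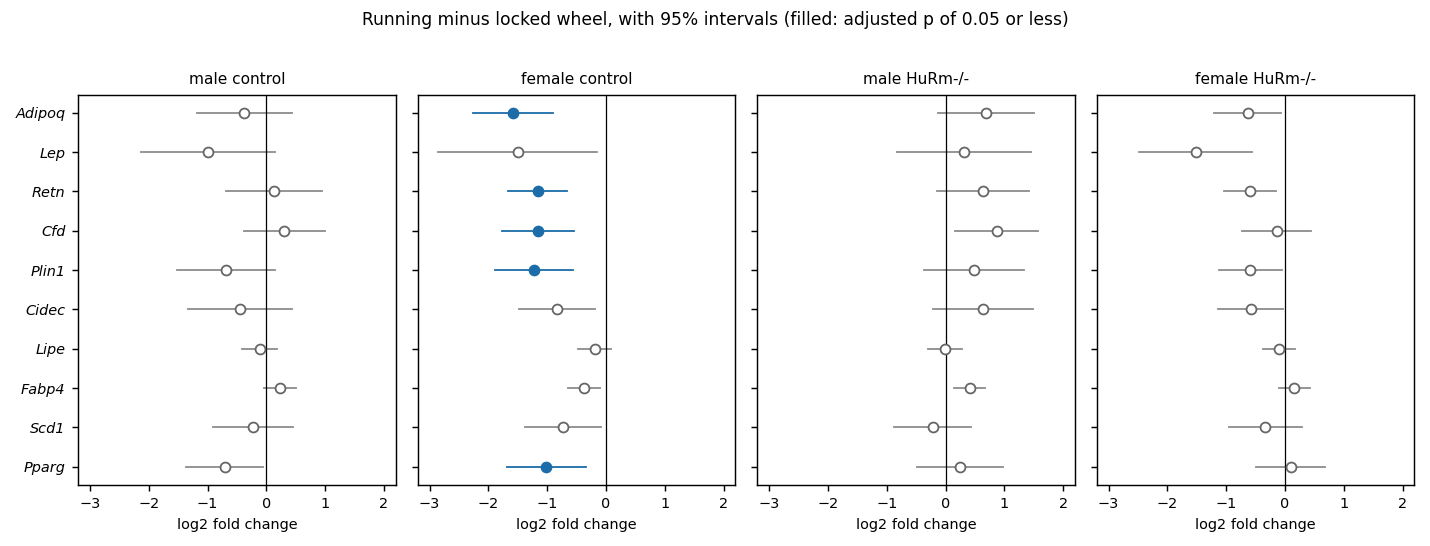
Difference between running and locked mice for each member in the 4 lines, as log2 fold difference with its 95% interval, filled where the adjusted p in limma was 0.05 or less. Only the panel of female controls has filled points, for Adipoq, Retn, Cfd, Plin1 and Pparg, all below 0.

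Other genes of the fat cell programme moved less evenly in the same mice. In this paragraph, fell and rose mean called in limma. Of 13 further white fat cell genes tested, 2 fell and none rose, with a median of -0.62. These were Pck1 (-1.82, adjusted p = 0.0295), which makes the glycerol backbone of triglyceride, and Rbp4 (-2.2, adjusted p = 0.0457), a secreted retinol carrier, and both are also strong liver genes. Adrb3, the β-adrenergic receptor of fat cells, was at -0.92 (adjusted p = 0.0581). Cebpa, a factor that works with Pparg, was the only 1 of 8 adipogenic factors to fall (-0.87, adjusted p = 0.0148). Among 14 lipogenic genes 1 rose, Lpin1 (0.52, adjusted p = 0.000937), and among 9 genes of lipolysis and lipid uptake 1 fell, Hilpda (-0.48, adjusted p = 0.0329), an inhibitor of lipolysis. Insr, the insulin receptor, rose (0.31, adjusted p = 0.0305) as the only 1 of 7 receptors of fat cell hormones and signals, and Ppard (0.52, adjusted p = 0.0294) as the only 1 of 11 relatives of the members. None of 4 brown fat genes passed in limma, in which 0 were called at adjusted p, and Ucp1 is not in the table.

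Markers of other cells moved with the fat cell genes in this comparison. All 9 stromal progenitor genes were lower (median -0.66) and 6 were called, among them Dcn (-0.77, adjusted p = 0.000632) and Col3a1 (-0.81, adjusted p = 0.00101). Their summed level ran from 2052 to 3439 CPM (median 2541) locked and from 1232 to 1925 CPM (1484) running. All 8 macrophage genes were lower (median -0.72) and 5 were called, among them C1qa (-0.71, adjusted p = 0.0305). Their sum had a median of 114 CPM (93.8 to 169) locked and 66.4 CPM (50.1 to 129) running. All 5 erythroid genes, which report blood, were lower (median -0.89) and 4 were called. Their sum had a median of 3876 CPM (1754 to 6392) locked and 1636 CPM (1052 to 3028) running. All 15 liver genes were lower (median -2.88), with 2 called and 13 at an unadjusted p under 0.05 in limma. Their sum was 174 CPM (113 to 3686) locked and 39.9 CPM (17.9 to 193) running. Endothelial genes did not move together (0 of 8 called in limma, median 0.04), with a sum of 240.5 CPM (209 to 285) locked and 247 CPM (201 to 276) running. Without the 2 mice rich in liver genes 5 members were still called. With the mean level of the stromal markers as a covariate, a fit added after the data were seen, no member was called in limma, and the differences shrank to -0.74 for Adipoq (adjusted p = 0.324) and -0.52 for Retn (adjusted p = 0.439). Since the summed stromal levels of the locked and running mice do not overlap, this fit cannot separate stromal content from the wheel. The part that stromal, macrophage or blood content has in the members' differences was not tested.

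**Figure D3:**
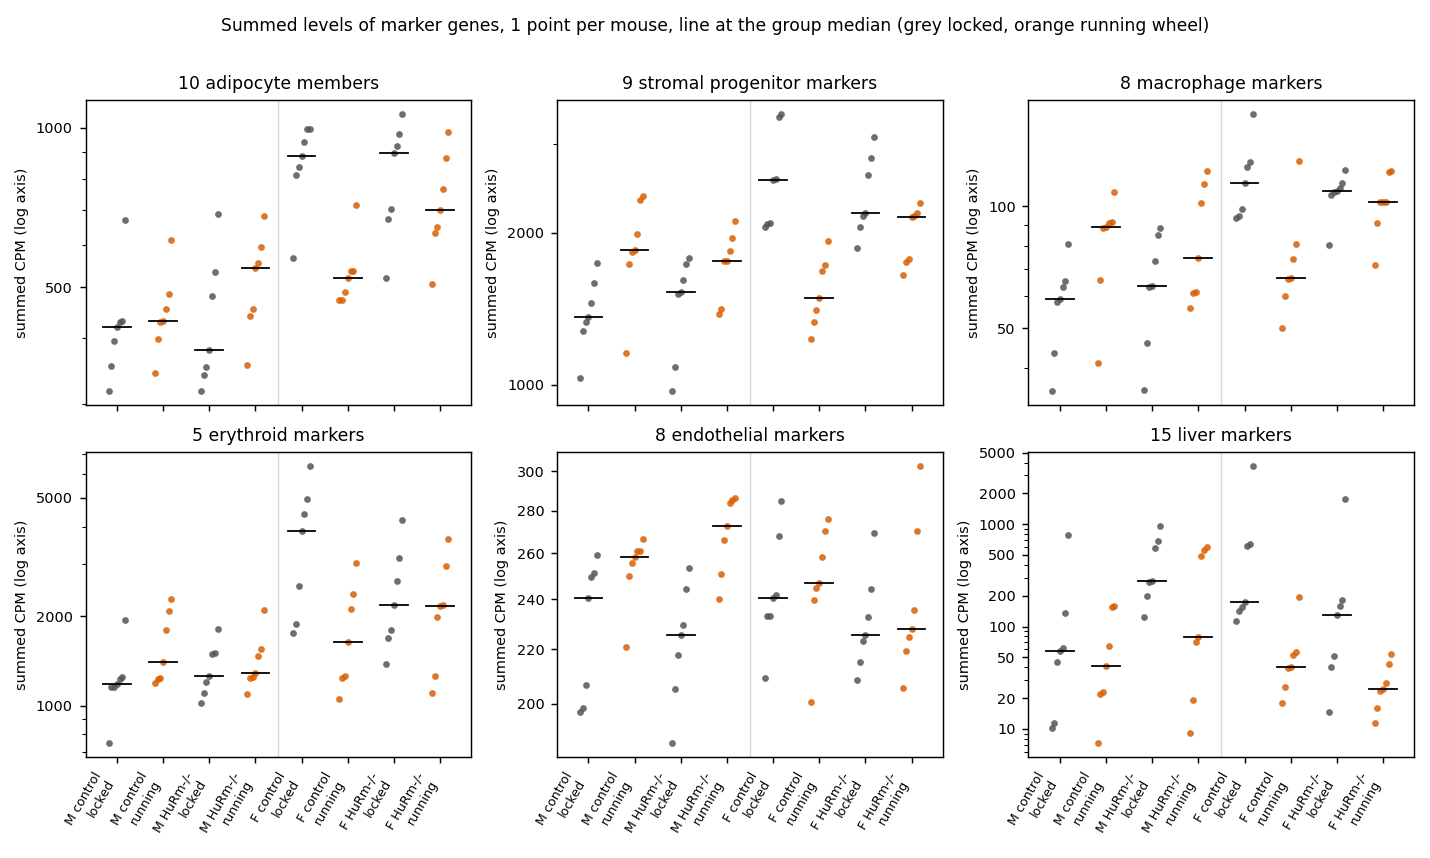
Summed level of the 10 members and of 5 marker lists for other cells in every mouse, in CPM on a log axis, with 1 point per mouse and a line at the group median (grey locked, orange running). In female controls the sums of the members, of the stromal markers and of the macrophage markers have lower medians with a running wheel, while the endothelial medians are 240.5 and 247 CPM.

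In HuRm-/- females no member passed for the wheel in limma, where 3.85% of all genes did. At an unadjusted p under 0.05 there were 5, namely Adipoq, Lep, Retn, Plin1 and Cidec, beside 2492 of the 14321 genes tested. The edgeR quasi-likelihood test and DESeq2 also called 0. The median of the 10 was -0.46, with 8 lower and 2 higher. Adipoq ran from 25.4 to 71.5 CPM (median 39.3) locked and from 16.7 to 41.0 CPM (25.3) running, and the ranges overlapped (-0.63, 95% interval -1.21 to -0.06, adjusted p = 0.224). Lep came closest to the threshold, with 2.01 to 9.70 CPM (median 3.79) locked and 0.711 to 3.93 CPM (1.56) running (-1.52, SE 0.48, adjusted p = 0.0589). Retn had 10.2 to 28.5 CPM (median 21.3) locked and 9.55 to 17.7 CPM (12.4) running (-0.59, adjusted p = 0.113). All 7 running mice were below the locked median of Retn, though the groups overlapped. Leaving out the locked mouse 30 brought 2 members past the threshold, and the count of all genes called in that refit is not given here.

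Plin1 in HuRm-/- females had 9.34 to 24.4 CPM (median 17.7) locked and 6.72 to 21.3 CPM (10.3) running (-0.59, adjusted p = 0.226), and Cidec differed by nearly as much (-0.58, adjusted p = 0.259). Cfd stood apart from these, with 82.8 to 253 CPM (median 144) locked and 91.8 to 218 CPM (126) running, ranges that almost coincide (-0.14, 95% interval -0.72 to 0.45, adjusted p = 0.863). Cidec had 5.35 to 16.03 CPM (median 13.9) locked and 5.11 to 19.3 CPM (7.60) running. Lipe (-0.10), Fabp4 (0.16), Scd1 (-0.33) and Pparg (0.10) all had intervals that include 0. Their levels, locked and running, were 29.03 to 45.8 CPM (median 37.2) and 30.8 to 48.5 CPM (31.5) for Lipe, and 105 to 350 CPM (285) and 242 to 335 CPM (272) for Fabp4. Scd1 had 161 to 424 CPM (median 242) and 98.4 to 380 CPM (185), and Pparg 0.609 to 6.21 CPM (5.40) and 2.73 to 4.81 CPM (4.04). For none of the 4 did the locked and running females separate. The locked mouse 34 had the lowest level of its group for Pparg, 0.609 CPM, and for Fabp4, 105 CPM. In this line none of the 9 stromal progenitor genes passed in limma (median -0.09) and none of the 8 macrophage genes did (median -0.12). All 15 liver genes were lower (median -2.06), with 0 called and 1 at an unadjusted p under 0.05 in limma. Their sum had a median of 129 CPM (14.6 to 1756) locked and 24.5 CPM (11.5 to 54.1) running, and their part was not tested. Of 9 genes of lipolysis and lipid uptake 2 were called higher, Lpl, the lipase that frees fatty acids at the vessel wall (0.58, adjusted p = 0.00302), and Angptl4, an inhibitor of it (2.10, adjusted p = 0.021).

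In male controls no member passed in limma, in edgeR or in DESeq2, where 3.24% of all genes passed in limma. At an unadjusted p under 0.05 there were 2405 of the 14321 genes tested and 1 member. That was Pparg, with 2.78 to 6.29 CPM (median 3.76) locked and 1.69 to 3.58 CPM (2.45) running (-0.71, adjusted p = 0.246). Adipoq ran from 5.83 to 29.4 CPM (median 10.1) locked and from 4.50 to 23.1 CPM (8.05) running, a difference of -0.38 with a 95% interval of -1.18 to 0.43. Lep was at -0.99 (95% interval -2.13 to 0.15, adjusted p = 0.393), with 1.24 to 6.82 CPM (median 1.77) locked and 0.636 to 3.34 CPM (1.16) running. The locked males overlapped the running ones for every member. Over the 10 members 7 were lower and 3 higher, and the median was -0.30. Cfd (0.30), Fabp4 (0.23) and Retn (0.12) were the higher ones. All 9 stromal progenitor genes were higher in running males (median 0.44) and 3 were called, among them Ly6a (0.53, adjusted p = 0.00379). All 8 macrophage genes were higher too (median 0.35), with 0 called in limma.

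HuRm-/- males likewise had no member called in limma, in edgeR or in DESeq2, and 0.0419% of all genes passed in limma. Here 8 members were higher and 2 lower with the running wheel, with a median of 0.45. At an unadjusted p under 0.05 there were 1821 of the 14321 genes tested and 2 of the members. Fabp4 was among these, with 162 to 232 CPM (median 220) locked and 237 to 363 CPM (276) running. The groups did not overlap, but the difference of 0.41 (SE 0.13) did not pass over all genes (adjusted p = 0.203). Cfd was the other, with 7.27 to 86.8 CPM (median 21.6) locked and 19.8 to 83.2 CPM (45.7) running (0.87, SE 0.35, adjusted p = 0.295). Adipoq spread widely, from 2.03 to 32.3 CPM (median 5.79) locked and from 4.91 to 27.1 CPM (12.7) running (0.70, 95% interval -0.12 to 1.51, adjusted p = 0.488). Retn (0.63), Cidec (0.64), Plin1 (0.49) and Lep (0.31) had positive differences too, and their intervals include 0. In the same comparison all 9 stromal progenitor genes (median 0.36, 6 at an unadjusted p under 0.05) and all 8 macrophage genes (median 0.35, 1 at an unadjusted p under 0.05) had positive differences, and all 15 liver genes negative ones (median -2.01, 14 at an unadjusted p under 0.05). None of these passed in limma, and their part in the members' differences was not tested.

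The levels of the other members in males were these. Retn had 1.35 to 11.7 CPM (median 3.76) in locked and 2.14 to 6.24 CPM (4.28) in running controls, and 0.949 to 10.2 CPM (3.57) in locked and 2.80 to 7.71 CPM (5.14) in running HuRm-/- males. Cfd in male controls had 19.5 to 90.2 CPM (median 33.9) locked and 20.0 to 75.8 CPM (45.7) running. All 4 male groups thus overlapped one another for both secreted products. Plin1 had 2.96 to 15.1 CPM (median 4.01) in locked and 2.40 to 6.68 CPM (3.73) in running controls, and 1.05 to 13.6 CPM (3.13) and 1.35 to 9.37 CPM (5.76) in HuRm-/- males. Cidec had 1.57 to 10.3 CPM (median 3.42) and 1.27 to 4.93 CPM (3.16) in controls, locked and running, and 0.769 to 8.93 CPM (3.40) and 2.80 to 9.48 CPM (4.47) in HuRm-/- males. In each locked group of males the highest mouse lay far above the median for both droplet genes. Lep in HuRm-/- males had 0.0699 to 6.39 CPM (median 1.66) locked and 0.613 to 7.42 CPM (1.77) running, and Pparg 1.19 to 5.90 CPM (2.71) and 1.92 to 4.57 CPM (2.84). Fabp4 in male controls had 204 to 261 CPM (median 219) locked and 236 to 308 CPM (270) running, so that all 7 running mice lay above the locked median. Lipe kept to 18.99 to 33.5 CPM in all 28 males. Scd1 had medians of 105 and 85.2 CPM in locked and running controls and of 141 and 122 CPM in HuRm-/- males, within 38.2 to 262 CPM.

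Averaged over the 4 lines, the wheel difference passed in limma for 1 member, Lep (-0.92, SE 0.29, adjusted p = 0.0423), beside 5.96% of all genes. Plin1 (-0.50, adjusted p = 0.0869) and Adipoq (-0.47, adjusted p = 0.105) came next. The call on Lep rested on single mice: it was lost in 21 of the 56 fits that left out 1 mouse, with adjusted p of up to 0.0762. Lep was lower with the running wheel in 3 of the 4 lines and higher in HuRm-/- males.

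The wheel differences were then compared between the sexes. In controls the wheel difference of females minus that of males was negative for all 10 members, and 2 passed in limma, beside 8.74% of all genes. These were Cfd (-1.45, SE 0.46, adjusted p = 0.0364) and Fabp4 (-0.60, SE 0.19, adjusted p = 0.0361), for both of which males had positive and females negative differences. Adipoq (-1.21, adjusted p = 0.147) and Retn (-1.28, adjusted p = 0.0801) did not pass. The count of 2 moved between 0 and 3 when any 1 mouse was left out, and it was 0 with the stromal markers as a covariate. Markers of other cells moved in the same direction, with 8 of 9 stromal progenitor genes (median -1.02), 5 of 8 macrophage genes (median -1.12) and 4 of 5 erythroid genes (median -1.37) called and 0 of 8 endothelial genes called in limma (median -0.05). In HuRm-/- mice the same difference was negative for all 10. None passed in limma, in edgeR or in DESeq2, beside 1.35% of all genes called in limma. At the looser threshold of an unadjusted p under 0.05, for which no count over all genes is given here, there were 6 members. The largest of them was Lep (-1.83, 95% interval -3.32 to -0.34, adjusted p = 0.218), followed by Adipoq (-1.33, adjusted p = 0.17) and Retn (-1.23, adjusted p = 0.155). The 9 stromal progenitor genes were negative here too (median -0.42), with 0 called in limma and 6 at an unadjusted p under 0.05.

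For the label, HuRm-/- mice were compared with controls of the same sex and wheel, and no member passed in any of the 4 comparisons in limma, in edgeR or in DESeq2. In locked males, beside 1.15% of all genes called, 9 members were lower and 1, Scd1, higher, with a median of -0.46. At an unadjusted p under 0.05 there were 2386 of the 14321 genes tested and 1 member. That was Pparg, with 2.78 to 6.29 CPM (median 3.76) in controls and 1.19 to 5.90 CPM (2.71) in HuRm-/- males (-0.72, adjusted p = 0.282). Adipoq differed by -0.63 (95% interval -1.49 to 0.22, adjusted p = 0.473). The male groups overlapped for every member. Liver genes moved with this label, since all 15 were higher in locked HuRm-/- males (median 2.84, 0 called in limma), where their sum had a median of 281 CPM (125 to 955) against 57.4 CPM (10.1 to 792) in controls. Their part in the difference of Scd1, a gene that liver expresses, was not tested.

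In locked females, beside 0.384% of all genes called, 5 members were higher and 5 lower, with a median of -0.04. Plin1 differed by 0.00 with a 95% interval of -0.52 to 0.53, and Adipoq by -0.08 with an interval of -0.65 to 0.48. Both intervals end short of the fitted wheel differences of these genes in female controls, -1.23 and -1.58, which carry their own error. Both contrasts share the locked female controls, and the difference between them was not tested. Pparg had the only unadjusted p under 0.05 among the members (-0.61, adjusted p = 0.318), with 4.11 to 7.11 CPM (median 5.98) in controls and 0.609 to 6.21 CPM (5.40) in HuRm-/- females. Of the 14321 genes tested, 2043 had an unadjusted p under 0.05. All 15 liver genes were lower in locked HuRm-/- females (median -2.19, 0 called in limma, 12 at an unadjusted p under 0.05). Their sum had a median of 129 CPM (14.6 to 1756) against 174 CPM (113 to 3686) in controls. All 5 erythroid genes were lower too (median -0.54, 0 called in limma, 3 at an unadjusted p under 0.05). The part of either in the members' differences was not tested.

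In running males all 10 members were higher in HuRm-/- mice, by 0.03 to 0.64, with a median of 0.34, beside 2.63% of all genes called. None had an unadjusted p under 0.05, where 2223 of the 14321 genes tested did. Cidec had the largest difference (0.64, 95% interval -0.17 to 1.45, adjusted p = 0.484). In running females all 10 were higher too, by 0.24 to 0.86 with a median of 0.44. In that comparison 0 of the 14321 genes tested passed in limma, which is 0%, and 0 in edgeR, while DESeq2 called 71 genes and 1807 had an unadjusted p under 0.05 in limma. Adipoq was 15.4 CPM in the median (9.40 to 22.5) in running control females and 25.3 CPM (16.7 to 41.0) in running HuRm-/- females (0.86, SE 0.34, adjusted p = 0.264). Cfd was 73.9 CPM (46.6 to 107) against 126 CPM (91.8 to 218) (0.80, SE 0.31, adjusted p = 0.252). For Adipoq, Retn, Cfd and Fabp4 all 7 HuRm-/- mice lay above the control median, with overlapping ranges. In a fit of these 2 groups alone 2 members passed, and the count of all genes called in that fit is not given here. Stromal progenitor genes were higher in 9 of 9 cases (median 0.34) and macrophage genes in 8 of 8 (median 0.49) in the same mice, none past the threshold in limma, and their part was not tested.

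**Figure D4:**
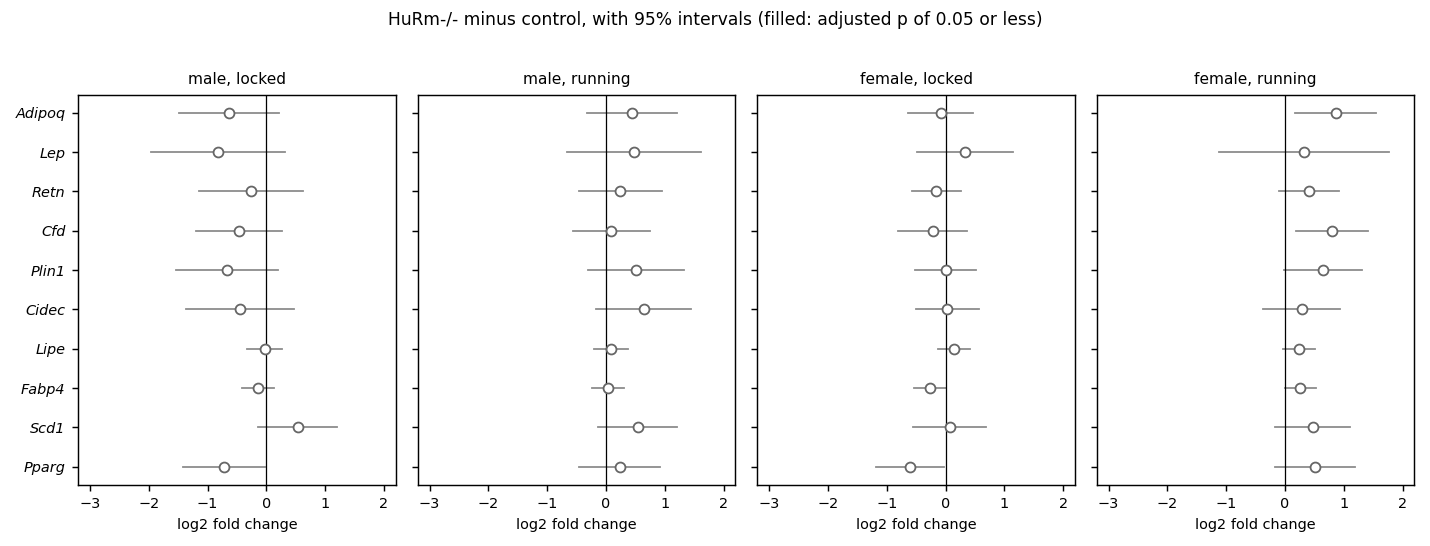
Difference between HuRm-/- and control mice for each member in the 4 combinations of sex and wheel, as log2 fold difference with its 95% interval, filled where the adjusted p in limma was 0.05 or less. No point is filled, and all 10 points lie above 0 in both panels of running mice.

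Averaged over sex and wheel, no member passed in limma for the label, beside 11.8% of all genes. Scd1 came closest (0.40, adjusted p = 0.098). It alone had an unadjusted p under 0.05, and the count over all genes at that threshold is not given here. DESeq2 and edgeR called 0 members as well. Whether the wheel acted differently under the label was asked within each sex. In females the wheel difference of HuRm-/- mice minus that of controls was positive for 9 of 10 members, and 4 had an unadjusted p under 0.05. These were Adipoq (0.95, adjusted p = 0.454), Cfd (1.02, adjusted p = 0.409), Fabp4 (0.53, adjusted p = 0.34) and Pparg (1.11, adjusted p = 0.391). None passed in limma, nor did any other gene (0%), with 1472 genes at an unadjusted p under 0.05, 0 called in edgeR and 11 called in DESeq2. The fall of the members with the wheel in female controls, and its lack of a call in HuRm-/- females, is therefore not shown to differ between the genotypes. In males the same difference was positive for all 10, with none at an unadjusted p under 0.05 (Plin1 1.18, 95% interval -0.01 to 2.37, adjusted p = 0.562), beside 0.0349% of all genes called. The count over all genes at the unadjusted threshold is not given here for males. These comparisons share groups with those above and are not independent of them.

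Most calls on the members came from the comparison of the sexes. In locked controls all 10 were higher in females and 8 were called, beside 21.5% of all genes called in either direction. The median of the 10 was 1.45. From the levels given above, Retn (2.57, adjusted p = 2.03e-07, 5.93-fold) and Cfd (2.25, adjusted p = 6.5e-07, 4.75-fold) did not overlap between the sexes. Adipoq was 3.73-fold higher in females (1.90, adjusted p = 4.93e-05), with an overlap made by 1 male, mouse 31, at 29.4 CPM. Plin1 (1.50), Cidec (1.51) and Scd1 (1.40) were higher by a like amount, while Lipe (0.47, adjusted p = 0.0154) and Fabp4 (0.38, adjusted p = 0.0353) were higher by less. Lep did not pass (0.35, 95% interval -0.64 to 1.35, adjusted p = 0.659), nor did Pparg (0.48, adjusted p = 0.262).

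In locked HuRm-/- mice 8 members were again called higher in females, beside 19.3% of all genes called, with Retn at 6.39-fold (2.67, adjusted p = 2.47e-08) and no overlap between the sexes. Adipoq was 5.46-fold higher (2.45, adjusted p = 1.3e-06) and Cfd 5.66-fold (2.50, adjusted p = 1.05e-07). Lep passed here (1.52, adjusted p = 0.0217) and Fabp4 did not (0.26, adjusted p = 0.17). Among running HuRm-/- mice 5 were called higher in females, beside 5.57% of all genes called. Retn (1.45, adjusted p = 0.000905) and Cfd (1.50, adjusted p = 0.00106) did not overlap between the sexes, and Lipe (0.55, adjusted p = 0.00916), Adipoq (1.12, adjusted p = 0.0355) and Plin1 (1.10, adjusted p = 0.0417) were the others. In running controls only Retn was called (1.28, adjusted p = 0.00507, no overlap), beside 7.65% of all genes. With the running female control 26 or the running male control 28 left out, 3 members were called. The counts of all genes called in those refits are not given here. In the main fit, Adipoq differed by 0.69 in running controls, with a 95% interval of -0.08 to 1.47.

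**Figure D5:**
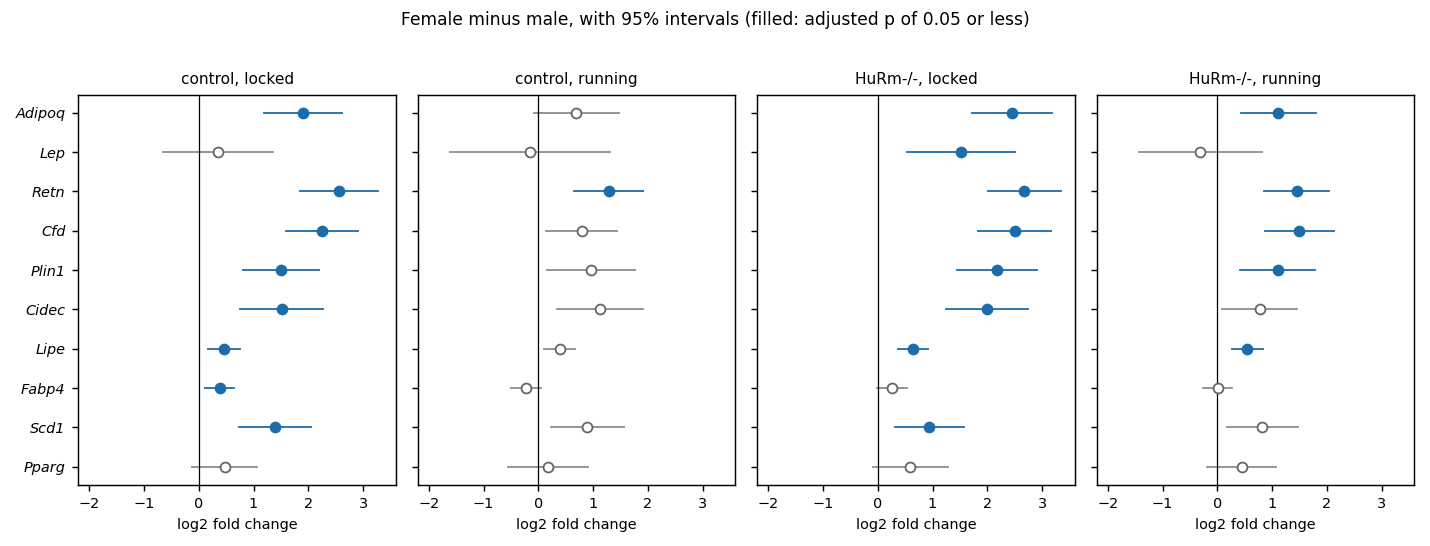
Difference between females and males for each member in the 4 combinations of genotype and wheel, as log2 fold difference with its 95% interval, filled where the adjusted p in limma was 0.05 or less. Retn is filled in all 4 panels, and the locked panels have 8 filled points each.

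Other genes of the fat cell went the same way in part. In locked controls 6 of 13 further white fat cell genes were called higher in females and none lower, led by Adrb3 (2.86, adjusted p = 7.91e-05) and Slc7a10 (2.08, adjusted p = 0.00137), an amino acid transporter. Of 14 lipogenic genes 8 were called higher and 2 lower, with Fasn, the fatty acid synthase, at 1.61 (adjusted p = 0.00238) and Lpin1 at -0.63 (adjusted p = 5.11e-06). Cebpa was higher (1.31, adjusted p = 0.000143). Markers of other cells moved along here too. In locked controls all 9 stromal progenitor genes, 7 of 8 macrophage genes, all 5 erythroid genes and 4 of 15 liver genes were called higher in females. Of the endothelial genes 0 of 8 were called in limma, and 5 of 10 skeletal muscle genes were called lower. In locked HuRm-/- mice the counts called were 9 of 9 stromal, 6 of 8 macrophage and 3 of 5 erythroid genes higher and 9 of 15 liver genes lower. With the stromal markers as a covariate 0 members were called in limma in locked controls and 1, Retn (adjusted p = 0.0151), in locked HuRm-/- mice. In locked mice of either genotype the summed stromal levels of the sexes do not overlap, so this fit cannot separate stromal content from sex there. In running HuRm-/- mice, where 5 members were called, all 9 stromal genes had positive differences (median 0.44) with 3 called, 1 of 8 macrophage genes was called higher, and the covariate left 0 members called in limma. In running controls, where 1 member was called, no stromal gene was called higher and 1 was lower.

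Ordered by their medians over the 8 groups, the 4 female groups took the top 4 places for Adipoq, Retn, Cfd, Plin1, Cidec and Lipe, 3 of the top 4 for Fabp4, Scd1 and Pparg, and 2 of them for Lep. The top median was 8.10 times the bottom one for Adipoq, 7.43 times for Cfd, 6.11 times for Retn, 5.67 times for Plin1, 4.38 times for Cidec and 4.27 times for Lep. Scd1 (2.84 times), Pparg (2.44), Lipe (1.75) and Fabp4 (1.43) were spread less. Locked HuRm-/- males were at the bottom for Adipoq, Retn, Cfd and Plin1, while for Lep the bottom was the running female controls. For every member all 7 pairs of neighbours in the order had overlapping ranges, so that only groups farther apart in it can be set apart.

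Within groups the members followed one another from mouse to mouse. Over the 56 mice, with each group's mean removed, the log2 level of Adipoq had a Pearson r of 0.93 with Cfd (Spearman rho 0.87), 0.91 with Plin1 (0.87), 0.83 with Cidec (0.75), 0.79 with Retn (0.76) and 0.73 with Lep (0.63). Lipe (0.68) and Scd1 (0.62) followed less closely, and Pparg (0.42) and Fabp4 (0.37) least. In the 28 males all members but Fabp4 had a higher r than in the 28 females, as with Lep (0.82 and 0.49) and Scd1 (0.73 and 0.27). Leaving out the 2 mice farthest from the median of Adipoq left r at 0.90 for Cfd and 0.88 for Plin1 and lowered it to 0.29 for Pparg. These values describe genes read in the same libraries, which share depth and dissection. The r of Adipoq was 0.57 with the stromal markers, 0.54 with the macrophage markers, 0.10 with the liver markers, -0.01 with the endothelial markers, -0.35 with the skeletal muscle markers and -0.32 with the total count. Fabp4, which endothelium also makes, had an r of 0.17 with the endothelial markers.

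Outside the 10, the genes whose level followed Adipoq most closely in the same sense, among 14311 compared over 56 mice, were Ifi27l2a (r = 0.82), Ccdc80 (0.77), Prkar2b (0.74), Acvr1c (0.73), Slc1a5 (0.70), Prelp (0.70), Sncg (0.69), Efhd1 (0.69), Aoc3 (0.69) and Itgbl1 (0.68). Each followed Adipoq less closely than Cfd, Plin1 and Cidec did. In female controls 6 of these 10 had fallen with the wheel in limma, among them Aoc3, an amine oxidase of fat cells (-0.98, adjusted p = 0.00059), and Itgbl1 (-0.97, adjusted p = 0.0059).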

How the data were processed

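Gastrocnemius RNA of 56 mice was sequenced. The study's methods describe a stranded, ribosome-depleted total RNA kit, while the labels name a kit for 3′ ends; which one made these counts, and the aligner, are not given in the sources used here. The authors deposited raw gene counts, and their processing notes name R 4.0.3, edgeR 3.38.4 and GRCm38. No gene of the table totals fewer than 168 counts over all mice, so low genes are missing from it. Coordinates and symbols came from GENCODE M21 on GRCm38.

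Groups came from the labels. Counts were scaled by TMM, filtered with filterByExpr and fitted with voom and limma 3.58.1 (edgeR 4.0.16, R 4.3.3) in 1 model of 8 groups, as two-sided contrasts with Benjamini-Hochberg adjustment over all 14321 genes. Log2 levels used an offset of 0.5 CPM. P-values measure the spread between these mice. Other genes were named by smallest adjusted p, at most 4 per list, and, for likeness to Adipoq, by r. The members, lists and tests were chosen with earlier results of these data known. Alternatives were edgeR's quasi-likelihood test, DESeq2 1.42.0, upper-quartile scaling, no filter, sample quality weights, a fit of only the compared groups, mouse number as a block and each mouse left out. A stromal covariate and leaving out 2 liver-rich mice were added after seeing the data. The fit was tested on simulated data. Genes of shared sequence (Scd1 and the other Scd genes, the haemoglobins) may exchange reads.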

Additional observations from a re-analysis of the deposited data

Results flagged for a closer look

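Of 80 sets of 7 mice (10 members in 8 groups), 10 held a mouse set apart from the other 6 by more than Dixon's 95% critical value. For normal values chance flags about 1 in 20. These are CPM values without a log, of members that follow one another, so the 10 cannot be read as an excess. They came from 7 mice. In the locked male control 31, Retn (11.7 CPM), Cidec (10.3 CPM) and Pparg (6.29 CPM) were each far above the group. The running HuRm-/- female 7 was high for Lep (3.93 CPM) and Cidec (19.3 CPM). The running female control 25 was high for Retn (18.1 CPM), the running HuRm-/- male 2 for Fabp4 (363 CPM), the locked female control 32 for Scd1 (424 CPM) and the locked HuRm-/- male 23 for Pparg (5.90 CPM). The locked female control 18 was low for Lipe (22.7 CPM).

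The wheel difference of control females minus that of control males passed the test for Cfd (-1.45 on the log2 scale) and for Fabp4 (-0.60).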

How the results depend on the processing

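Counts of members called are given, without the counts of all genes called in the same refits. In the 9 comparisons of the label, of the wheel by the label and of the wheel in males, the 0 held under the alternatives run, except for 2 for running females in a fit of only those groups and 1 for the averaged label with sample quality weights or without the locked male control 31. The wheel in female controls gave 5, and 9 in a fit of only those groups, 0 with the stromal covariate and 4 to 7 with a mouse left out. In HuRm-/- females it gave 0, 1 with quality weights and 0 to 2 with a mouse left out. The averaged wheel gave 1, 3 with edgeR's quasi-likelihood test, 3 with DESeq2, 4 with quality weights, 3 with the stromal covariate and 0 to 3 with a mouse left out; the averaged label gave 0 to 1 with a mouse left out. The sex comparison gave 8 in locked controls (0 with the stromal covariate, 6 to 8 with a mouse left out), 1 in running controls (3 with DESeq2, 2 with quality weights, 6 in a fit of only those groups, 1 to 3 with a mouse left out), 8 in locked HuRm-/- mice (1 with the stromal covariate, 6 to 10 with a mouse left out) and 5 in running ones (3 with the quasi-likelihood test, 3 with DESeq2, 0 with the stromal covariate, 3 to 5 with a mouse left out). The wheel by sex gave 2 in controls (1 with the quasi-likelihood test, 1 with DESeq2, 3 with quality weights, 3 in a fit of only those groups, 1 without the liver-rich mice, 0 with the stromal covariate, 0 to 3 with a mouse left out) and 0 in HuRm-/- mice (0 to 1, with 1 without the locked female 34). With the stromal covariate 2 calls changed sign, Fabp4 between the sexes in locked controls (-0.042, adjusted p = 0.948) and Lep in locked HuRm-/- mice (-0.36, adjusted p = 0.846); the cause was not tested. With the mouse number as a replicate block, female controls kept 5 for the wheel, and no count of members moved by more than 1.5 times. Whether equal numbers mark paired mice was not settled. The 22 pairs of equal number had correlations of -0.29 to 0.46 (median 0.04), 8 of them over 0.1, and pairs of unequal number were not examined. Over the 30 calls on members and all alternatives but a mouse left out, 227 of 269 refits kept the call, 40 lost it and 2 reversed it. Depth limits Lep most, at 1 to 115 counts per mouse.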
